A study of Homo sapiens with 9 samples.

Results

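The inhibitors of cyclin-dependent kinases of the INK4 family (*CDKN2A*, *CDKN2B*, *CDKN2C* and *CDKN2D*) and of the CIP/KIP family (*CDKN1B* and *CDKN1C*) were examined together with *MTAP*, the chromosomal neighbour of *CDKN2A*, in 3 human kidney cell lines. The 7 genes were found by their NCBI gene identifiers in a table of 28395 genes. All 7 averaged 50 counts or more across the 9 libraries and were tested among 12695 genes, although *CDKN2A*, *CDKN2B* and *CDKN1C* reached that mean only through HK2. HK2 is a proximal tubule line derived from normal kidney and immortalized with papillomavirus oncogenes, 786-O is a line from a primary clear cell renal cell carcinoma (ccRCC), and the third line, called the metastatic line here, is a metastatic derivative of 786-O that was recovered from lung metastases after 786-O cells had been injected in vivo. None of the cells was treated, and all were adapted to Plasmax, a culture medium modelled on the nutrients of human serum. Each line gave 3 libraries. Replicate dishes were plated, and the paper describes its RNA-seq values as coming from 3 independent cultures. The p-values therefore measure only the spread between cultures of the same line, and each condition is represented by 1 line. The comparison asked how the transcriptome of the primary and the metastatic cancer line differed from that of the normal tubule line and from each other.

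INK4 proteins bind the kinases CDK4 and CDK6 and keep cyclin D from activating them, which leaves the retinoblastoma protein unphosphorylated and holds the cell in G1. *CDKN2A* encodes a pair of unrelated proteins from separate first exons, the INK4 inhibitor p16 and, from the upstream start site, p14ARF, which inhibits MDM2. *CDKN2B* encodes p15, *CDKN2C* p18 and *CDKN2D* p19, while *CDKN1B* (p27) and *CDKN1C* (p57) bind cyclin and kinase together and act mainly on CDK2. *MTAP* encodes methylthioadenosine phosphorylase, the first enzyme of methionine salvage, and is often lost with *CDKN2A* when this stretch of chromosome 9 is deleted in tumors.

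*CDKN2A* and *CDKN2B* had no read in any library of 786-O or the metastatic line, whereas *MTAP* was read in all 9 libraries. The 250 bases before their start sites are shown because the genes are neighbours on the same chromosome and differed so widely. *CDKN2A* (NCBI gene 1029) spans 21967752 to 21995324 and *CDKN2B* (NCBI gene 1030) spans 22002903 to 22009313 of chromosome 9 on the minus strand, and *MTAP* (NCBI gene 4507) spans 21802636 to 21941115 on the plus strand (GRCh38). The sequences are those of RefSeq on GRCh38.p14, written 5′ to 3′ on the strand of the gene. Capitals mark the GC box GGGCGG on either strand, the letters that the transcription factor SP1 is known to bind.
*CDKN2A*, upstream (p14ARF) start, chr9:21995325-21995574, minus strand: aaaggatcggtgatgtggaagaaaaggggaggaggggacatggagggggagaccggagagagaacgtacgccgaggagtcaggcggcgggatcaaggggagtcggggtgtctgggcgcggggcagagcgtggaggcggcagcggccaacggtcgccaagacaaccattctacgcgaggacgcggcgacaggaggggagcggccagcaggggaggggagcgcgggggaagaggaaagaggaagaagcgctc
*CDKN2A*, p16 start, chr9:21974858-21975107, minus strand: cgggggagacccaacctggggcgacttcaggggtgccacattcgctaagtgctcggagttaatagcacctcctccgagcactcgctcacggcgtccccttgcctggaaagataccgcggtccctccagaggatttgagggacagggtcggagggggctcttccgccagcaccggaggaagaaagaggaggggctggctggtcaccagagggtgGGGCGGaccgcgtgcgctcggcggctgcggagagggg
*CDKN2B*, chr9:22009306-22009555, minus strand: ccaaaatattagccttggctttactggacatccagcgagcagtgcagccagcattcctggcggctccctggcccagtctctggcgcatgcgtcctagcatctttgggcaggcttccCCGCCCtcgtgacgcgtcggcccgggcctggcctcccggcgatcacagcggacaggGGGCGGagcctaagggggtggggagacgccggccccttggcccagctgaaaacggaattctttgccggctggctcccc
*MTAP*, chr9:21802386-21802635, plus strand: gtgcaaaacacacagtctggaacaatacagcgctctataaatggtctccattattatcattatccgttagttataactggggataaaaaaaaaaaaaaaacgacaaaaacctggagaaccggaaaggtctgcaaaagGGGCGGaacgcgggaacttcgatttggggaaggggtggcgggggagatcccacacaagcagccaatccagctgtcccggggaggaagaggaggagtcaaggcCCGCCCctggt

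The GC box was absent from the window of the upstream *CDKN2A* start, present 1 time before the p16 start, and present 2 times before *CDKN2B* and before *MTAP*. Among 35116 promoter windows of the same length 42.6% held it. The upstream *CDKN2A* window had 24 CG pairs, the p16 window 20, the *CDKN2B* window 18 and the *MTAP* window 11, where the median of all windows was 11. The start sites of *CDKN2A* lie 20.5 kb apart, and the upstream one lies 14.0 kb from the start of *CDKN2B* and 193 kb from that of *MTAP*. Promoter windows were found for 6 of the 7 genes. Of those not printed, the 3 windows of *CDKN2C* held 0, 5 and 1 GC boxes, that of *CDKN1B* 1 and that of *CDKN2D* 2.

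**Figure D1:**
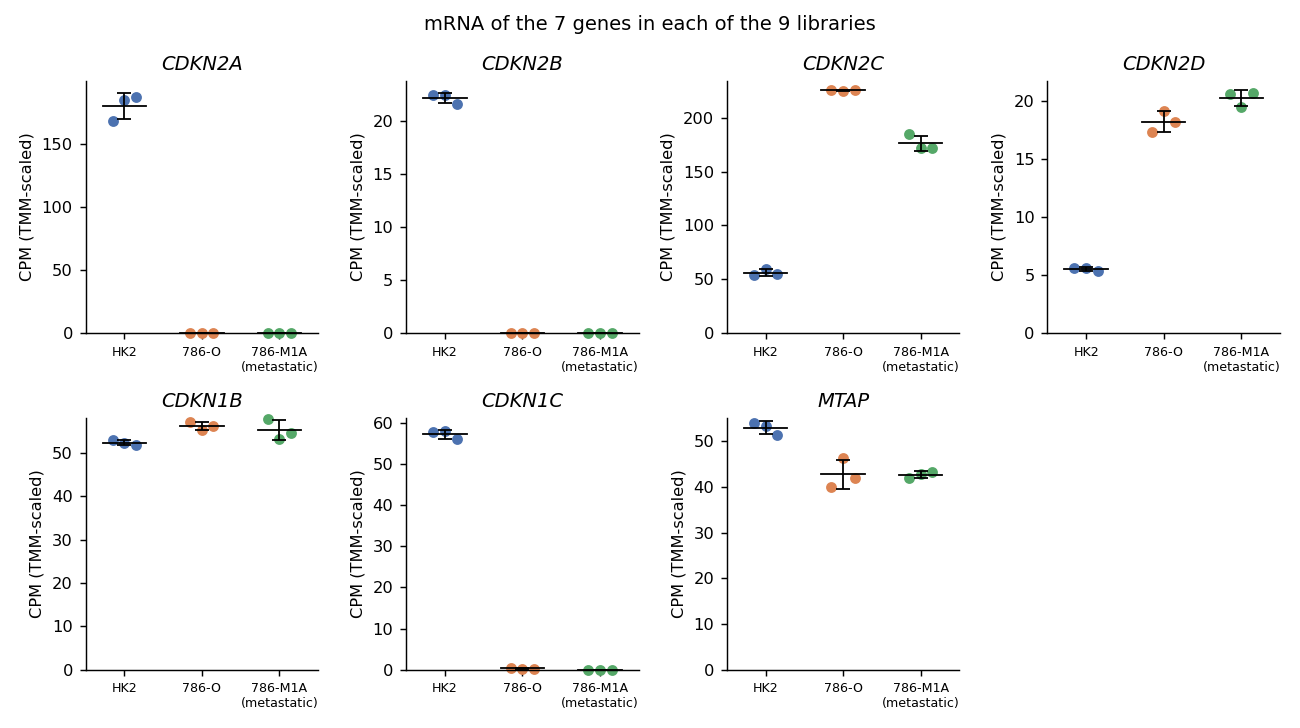
mRNA of the 7 genes in CPM scaled with TMM factors, with 1 panel per gene, 1 point per library, a line at the mean of the 3 libraries of HK2, 786-O or the metastatic line and bars of 1 SD. *CDKN2A* and *CDKN2B* are at 0 and *CDKN1C* is at or near 0 in the cancer lines, *CDKN2C* and *CDKN2D* stand above HK2, and *CDKN1B* and *MTAP* stay within 40.0 to 57.8 CPM in all 9 libraries.

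Per length of transcript, *CDKN2A* had the highest level of the 6 inhibitors in HK2, and it was not detected in either cancer line. The HK2 libraries had 5228, 7450 and 8654 counts, or 168, 185 and 187 CPM (counts scaled by library size and TMM factor), a mean of 180 ± 10.3 CPM (SD, n = 3). All 3 libraries of 786-O and all 3 of the metastatic line had 0 counts. Setting the smallest detectable amount at 3 counts over the 3 libraries of a line (0.0241 CPM for 786-O and 0.0267 for the metastatic line), *CDKN2A* was at least 7512-fold lower in 786-O (edgeR quasi-likelihood test with Benjamini-Hochberg adjustment over all genes tested, adjusted p = 9.81e-22) and at least 6787-fold lower in the metastatic line (edgeR adjusted p = 1.06e-21) than in HK2. These bounds cover counting error only. In cultures sequenced in bulk, fewer cells with a transcript and less RNA per cell cannot be told apart. Since the counts were given per gene, the transcripts for p16 and p14ARF could not be separated.

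*CDKN2B*, the INK4 gene next to it, followed the same pattern at a lower level. HK2 had 697, 903 and 1001 counts (22.4, 22.4 and 21.6 CPM, mean 22.1 ± 0.459), and all 6 libraries of the cancer lines had 0. The gene was at least 916-fold lower in 786-O (edgeR adjusted p = 1.31e-18) and at least 827-fold lower in the metastatic line (edgeR adjusted p = 1.74e-18). Of the 12695 genes tested, 71 (0.559%) had 0 counts in all 6 cancer libraries. Ordered by their level in HK2, *CDKN2A* was number 1 and *CDKN2B* number 13 of these 71. *CDKN2A* and *CDKN2B* shared 6 stretches of 75 bases, which are 0.664% of those in the *CDKN2A* transcript and 0.159% of those in the *CDKN2B* transcript, so few reads could have been assigned to the wrong one.

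Both long noncoding RNAs that overlap these genes were read in HK2 only. *CDKN2B-AS1* (ANRIL), which starts near the upstream *CDKN2A* start and runs across *CDKN2B*, had 53, 64 and 66 counts in the HK2 libraries and 0 in the other 6. That is at least 64.4-fold lower in 786-O and at least 58.2-fold lower in the metastatic line. *CDKN2A-AS1* had 6, 9 and 8 counts in HK2 and 0 in the others, a bound of 8.10-fold and 7.32-fold. Both were under the filter on low counts and have no edgeR test. The libraries were made with a stranded kit, but the strand setting of the read counting is not given in the sources used here, so reads of these RNAs and of the genes that they overlap may not be separated.

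*MTAP* lies on the other side of *CDKN2A*, with 26.6 kb between the ends of both genes, and was only slightly lower in the cancer lines. HK2 had 1684, 2156 and 2379 counts, 786-O had 1776, 1746 and 1780, and the metastatic line had 1516, 1648 and 1638. On the CPM scale these are 54.1, 53.4 and 51.3 in HK2 against 40.0, 46.3 and 42.0 in 786-O, and 41.9, 42.9 and 43.3 in the metastatic line. The libraries of both cancer lines lay below all of HK2, and those of the metastatic line lay within the range of 786-O. Against HK2 the log2 fold change in 786-O was -0.31 (standard error (SE) 0.050, edgeR adjusted p = 6.86e-06) and -0.31 in the metastatic line (SE 0.050, edgeR adjusted p = 6.80e-06), which is 0.807-fold and 0.806-fold. Between the metastatic line and 786-O the difference was -0.0013 (edgeR adjusted p = 0.991, with a 95% interval from -0.11 to 0.10 on the log2 scale). Of the stretches of 75 bases in the *MTAP* transcript, 7.35% also occurred in the pseudogene *MTAPP2* or in 2 other gene models, so a small part of its reads is uncertain.

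The genes within 3 Mb of *CDKN2A* showed how far along the chromosome reads were missing in the cancer lines. The table held 45 such genes, of which 15 were tested. Against HK2, 12 of these were called in 786-O (6 higher and 6 lower) and 15 in the metastatic line (8 higher and 7 lower), and 8 were called between the metastatic line and 786-O (3 higher and 5 lower). Among all genes tested, 84.2%, 84.9% and 56% were called in these comparisons. On the *MTAP* side, *KLHL9*, an adaptor of a ubiquitin ligase, had 28.6 ± 0.290 CPM in HK2 against 37.4 ± 2.22 in 786-O and 33.9 ± 0.855 in the metastatic line (log2 fold change 0.39 and 0.25 against HK2, edgeR adjusted p = 2.83e-07 and 0.000125). *MIR31HG*, the host RNA of miR-31, had 1.16 ± 0.145, 4.12 ± 0.215 and 3.80 ± 0.130 CPM (log2 fold change 1.80 and 1.68, edgeR adjusted p = 1.25e-11 and 6.28e-11). Of the 17 interferon genes between them and beyond, 16 had at most 3 counts in every library and *IFNE* had at most 7. Within 1 Mb, the other listed genes with at most 3 counts in every library were *HACD4* and *MIR31*, and *LINC01239* had at most 7.

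On the *CDKN2B* side the next gene with reads in all 3 lines was *DMRTA1*, a DM domain gene that starts 438 kb beyond *CDKN2B*. It had 914, 1225 and 1335 counts in HK2 against 406, 355 and 427 in 786-O, and 252, 298 and 252 in the metastatic line, with no overlap between any of the lines. Its log2 fold change was -1.63 in 786-O (SE 0.063, edgeR adjusted p = 3.37e-16) and -2.05 in the metastatic line (SE 0.067, edgeR adjusted p = 1.38e-17) against HK2, and -0.42 between the metastatic line and 786-O (edgeR adjusted p = 6.29e-05). *ELAVL2*, a neuronal RNA-binding protein gene whose lower end lies 1722 kb from that of *CDKN2A*, had 277, 373 and 462 counts in HK2 and 0 in all 6 cancer libraries, at least 392-fold lower in 786-O and at least 354-fold lower in the metastatic line. Genes with 0 counts in the cancer lines were therefore separated by genes with reads. Of the genes farther away, *RRAGA*, a GTPase that signals amino acids to mTORC1, was higher by at least 2-fold, with log2 fold changes of 1.18 and 1.23 in 786-O and the metastatic line (edgeR adjusted p = 3.67e-15 and 1.43e-15).

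**Figure D2:**
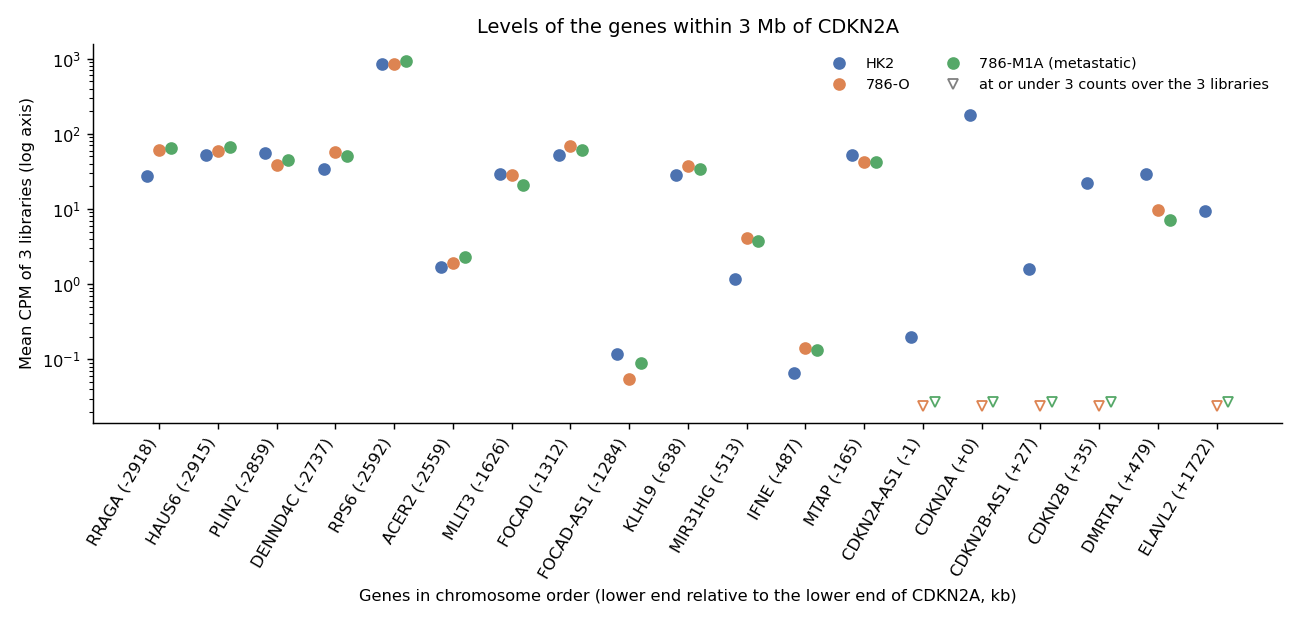
Mean CPM of 3 libraries on a log axis for the genes within 3 Mb of *CDKN2A* that had a mean above 0.1 CPM in some line, in chromosome order, with the lower end of each gene relative to that of *CDKN2A* in kb. Open triangles mark lines at or under 3 counts over their 3 libraries, which are 786-O and the metastatic line for *CDKN2A*, *CDKN2B*, their antisense RNAs and *ELAVL2*, while *MTAP* and *DMRTA1* have reads in all lines.

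*CDKN2C* and *CDKN2D*, the INK4 genes on other chromosomes, were higher in both cancer lines. *CDKN2C* (NCBI gene 1031, chromosome 1, 50960745 to 50974634) had 1684, 2403 and 2544 counts in HK2 against 10013, 8493 and 9561 in 786-O, and 6685, 6616 and 6506 in the metastatic line. Scaled to CPM, HK2 had 54.1, 59.6 and 54.9 (mean 56.2 ± 2.95), 786-O had 226, 225 and 226 (mean 225.5 ± 0.145), and the metastatic line had 185, 172 and 172 (mean 176 ± 7.32). The 3 lines did not overlap, with 786-O highest and HK2 lowest. The log2 fold change was 2.00 in 786-O (SE 0.043, edgeR adjusted p = 1.24e-20) and 1.65 in the metastatic line (SE 0.043, edgeR adjusted p = 3.18e-19) against HK2, or 4.01-fold and 3.13-fold. Between the cancer lines *CDKN2C* was lower in the metastatic line, by -0.36 on the log2 scale (SE 0.041, edgeR adjusted p = 1.74e-07).

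*CDKN2D* (NCBI gene 1032, chromosome 19, 10566460 to 10568979, minus strand) had 174, 227 and 247 counts in HK2 against 771, 722 and 771 in 786-O, and 747, 748 and 783 in the metastatic line. These are 5.59, 5.63 and 5.33 CPM in HK2 against 17.4, 19.2 and 18.2 CPM in 786-O, and 20.6, 19.5 and 20.7 CPM in the metastatic line. The libraries of HK2 were far below the others, and those of the cancer lines lay close together without overlap. The gene was 3.31-fold higher in 786-O (log2 fold change 1.72, SE 0.069, edgeR adjusted p = 6.76e-16) and 3.68-fold higher in the metastatic line (log2 fold change 1.88, SE 0.069, edgeR adjusted p = 1.21e-16) than in HK2. The difference between the metastatic line and 786-O was 0.15 (SE 0.058, edgeR adjusted p = 0.0289), and it was no longer called without 786-O replicate 1 (edgeR adjusted p = 0.106), 786-O replicate 3 (0.0653), replicate 1 of the metastatic line (0.0714) or replicate 3 of the metastatic line (0.0883).

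Per length of reference transcript, the summed level of the INK4 genes was similar in HK2 and 786-O but was made up of other genes. Levels were divided by the length of the MANE transcript, the reference transcript of a gene, to compare genes. In HK2, *CDKN2A* had 184 CPM per kb, *CDKN2C* 56.5, *CDKN2B* 5.74 and *CDKN2D* 3.87. *CDKN2A* thus made up 73.5% ± 1.05 (SD, n = 3) of the summed INK4 level and *CDKN2C* 22.6% ± 0.875. An unknown part of the *CDKN2A* reads may come from p14ARF, which is not an INK4 inhibitor. The share of *CDKN2A* and the sum in HK2 may therefore be too high for INK4 alone. In 786-O *CDKN2C* had 227 CPM per kb and *CDKN2D* 12.8, which are 94.7% and 5.35% of the sum, and in the metastatic line they had 177 and 14.2 CPM per kb, which are 92.6% and 7.44%. The summed level was 236, 258 and 255 CPM per kb in the HK2 libraries, 239, 240 and 239.5 in 786-O, and 200.2, 187 and 187 in the metastatic line. The 786-O libraries lay within the range of HK2, and those of the metastatic line lay below both. This order depends on the lengths used. With the length of all annotated exons together, the sum was 74.1 in HK2 against 86.8 in 786-O and 71.9 CPM per kb in the metastatic line, *CDKN2A* made up 62.4% of it in HK2, and *CDKN2C* made up 25.1%, 86.0% and 81.3% in the 3 lines.

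**Figure D3:**
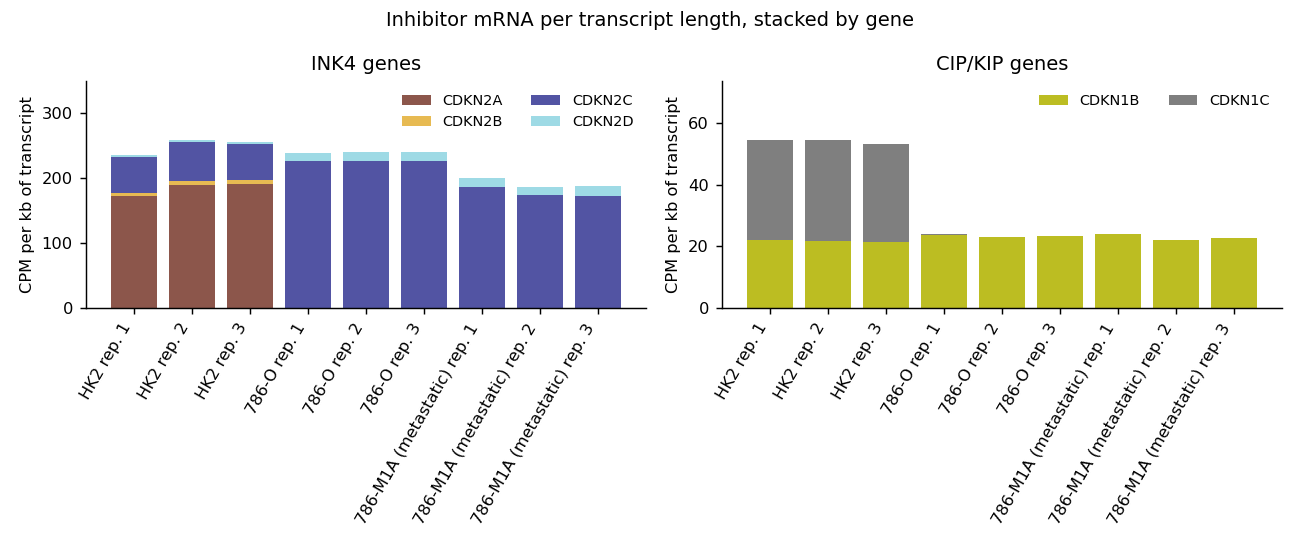
CPM per kb of MANE transcript in each of the 9 libraries, stacked by gene for the INK4 family (left) and for *CDKN1B* and *CDKN1C* (right). The left stacks are mostly *CDKN2A* in HK2 (73.5%) and mostly *CDKN2C* in 786-O (94.7%) and the metastatic line (92.6%), and the right stacks drop from 54.0 in HK2 to 23.5 and 22.9 CPM per kb, where *CDKN1C* is at or near 0.

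Among the CIP/KIP genes, *CDKN1B* was at nearly the same level in the 3 lines. *CDKN1B* (NCBI gene 1027, chromosome 12, 12717368 to 12722369) had 1647, 2108 and 2399 counts in HK2 against 2540, 2086 and 2385 in 786-O, and 2091, 2045 and 2067 in the metastatic line. The CPM values were 52.9, 52.3 and 51.8 in HK2 against 57.2, 55.3 and 56.3 in 786-O, and 57.8, 53.3 and 54.6 in the metastatic line. Its libraries in the cancer lines all lay above HK2, by little. The log2 fold change was 0.11 in 786-O (SE 0.043, edgeR adjusted p = 0.0273) and 0.08 in the metastatic line (edgeR adjusted p = 0.102, with a 95% interval from -0.01 to 0.17). The call in 786-O was lost without HK2 replicate 3 (edgeR adjusted p = 0.0796), 786-O replicate 1 (0.0828) or 786-O replicate 3 (0.0574). Between the metastatic line and 786-O the difference was -0.03, with an interval from -0.12 to 0.06 (edgeR adjusted p = 0.593).

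*CDKN1C*, the imprinted gene of p57, was expressed in HK2 and nearly absent in the cancer lines. *CDKN1C* (NCBI gene 1028, chromosome 11, 2883218 to 2885775, minus strand) had 1794, 2340 and 2596 counts in HK2 against 20, 10 and 12 in 786-O, and 1, 0 and 2 in the metastatic line. HK2 had 57.6, 58.0 and 56.0 CPM and 786-O had 0.451, 0.265 and 0.283 CPM. The lines did not overlap, and the 3 counts of the metastatic line are at the floor of detection. The ratio of summed counts of HK2 to 786-O, scaled for depth, was 169 (95% counting interval 125 to 235), and the edgeR log2 fold change was -7.39 (SE 0.11, edgeR adjusted p = 1.07e-23). The same ratio of HK2 to the metastatic line was 2141 (95% counting interval 732 to 10385, edgeR adjusted p = 8.08e-24). Between the cancer lines, 42 counts in 786-O stood against 3 in the metastatic line, a ratio of 12.6 (95% counting interval 4.04 to 63.8, edgeR adjusted p = 1.38e-05). The edgeR log2 fold change of the metastatic line was -10.91 against HK2 and -3.51 against 786-O, and it was -11.76 and -4.36 without replicate 3 of the metastatic line, which held 2 of the 3 counts.

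Per kb, *CDKN1C* was the more abundant of both genes in HK2, with 32.3 CPM per kb against 21.7 for *CDKN1B*, or 59.8% of their sum. Its share was 0.796% in 786-O and 0.0655% in the metastatic line. The summed level was 54.0 ± 0.792 CPM per kb in HK2 against 23.5 ± 0.440 in 786-O and 22.9 ± 0.969 in the metastatic line. With the length of all annotated exons together, the sum was 28.7 in HK2 against 6.22 in 786-O and 5.98 CPM per kb in the metastatic line, and *CDKN1C* made up 80.3%, 2.15% and 0.179% of it.

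Genes of the imprinted region around *CDKN1C* on chromosome 11p15.5 did not follow a single pattern. Some were read in HK2 alone or almost alone, another in the cancer lines alone and others in every line. *KCNQ1OT1*, the long noncoding RNA that is known to silence *CDKN1C* on the paternal chromosome, had 0 counts in all HK2 libraries, 108, 109 and 89 in 786-O, and 45, 68 and 81 in the metastatic line. It was at least 96.5-fold higher in 786-O (edgeR adjusted p = 7.37e-11) and at least 67.8-fold higher in the metastatic line (edgeR adjusted p = 8.33e-10) than in HK2. Between the metastatic line and 786-O it was lower by -0.51 on the log2 scale (edgeR adjusted p = 0.0204), although their libraries overlapped when scaled for depth. *KCNQ1*, the potassium channel gene that it overlaps on the other strand, had 81, 86 and 106 counts in HK2, 0 in all of 786-O, and 0, 1 and 1 in the metastatic line. As the strand setting of the counting is not given, reads of this pair may not be separated. Both *KCNQ1OT1* and *CDKN1C* were lower in the metastatic line than in 786-O, and whether their levels are linked was not tested. *H19*, a maternally expressed noncoding RNA, had 83, 113 and 147 counts in HK2 against 3, 8 and 3 in 786-O, and 0, 1 and 2 in the metastatic line. *KCNQ1* and *H19* were under the filter and have no edgeR test. *IGF2* had 0 counts in all 9 libraries. Other genes of the list had reads in every line, given here as mean CPM in HK2, 786-O and the metastatic line. They were *PHLDA2* (31.6, 32.8 and 41.0), *NAP1L4* (165, 186 and 203), *CD81* (249, 257 and 306) and *TSSC4* (15.9, 25.7 and 27.7). The 5 tested genes of the 11 listed for this region included 3 that were called in 786-O and 5 in the metastatic line against HK2, all higher, where 84.2% and 84.9% of all genes tested were called, and 4 between the cancer lines, 3 higher and 1 lower in the metastatic line, against 56% of all genes. Their median log2 fold change was 0.18, 0.37 and 0.12 in these comparisons. The filter kept *KCNQ1OT1* through its counts in the cancer lines and left out *KCNQ1* and *H19*, so the direction of the tested genes is not that of the whole list.

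Over the 7 genes, 7 were called in 786-O against HK2 (3 higher and 4 lower), where 84.2% of all genes tested were called, 41.6% higher and 42.6% lower. With at least a 2-fold difference as well, 5 of the 7 were called against 22.3% of all genes. The libraries did not overlap for any of the 7, as for 85.4% of all genes. In the metastatic line against HK2, 6 were called (2 higher and 4 lower), with 84.9% of all genes, 41.6% higher and 43.3% lower. With at least a 2-fold difference 5 were called against 25.4% of all genes, and 7 had no overlap against 85% of all genes. Between the metastatic line and 786-O, 3 of the 7 were called (*CDKN2D* higher, *CDKN2C* and *CDKN1C* lower) against 56% of all genes, 27.9% higher and 28% lower. Of these, *CDKN1C* differed by at least 2-fold, as did 6.59% of all genes, and 3 had no overlap against 61.6%. Without a limit on the fold, the share called was thus near that of all genes in both comparisons with HK2. With that limit, the 5 genes of each comparison include *CDKN2A*, *CDKN2B* and *CDKN1C*, which passed the filter only through HK2. The 7 genes were also chosen with earlier results of these data known. The counts with a 2-fold difference are therefore a description and no test of an excess over all genes. The median log2 fold change of the 7 genes was -0.31, -0.31 and -0.0013 in the 3 comparisons, where that of all genes tested was -0.01, -0.02 and 0. Both comparisons with HK2 use the same HK2 libraries. An exact two-sided permutation test of log2 CPM on 3 libraries against 3 gave p = 0.1 for each of the 7 genes in both comparisons with HK2, the smallest value that it can give.

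**Figure D4:**
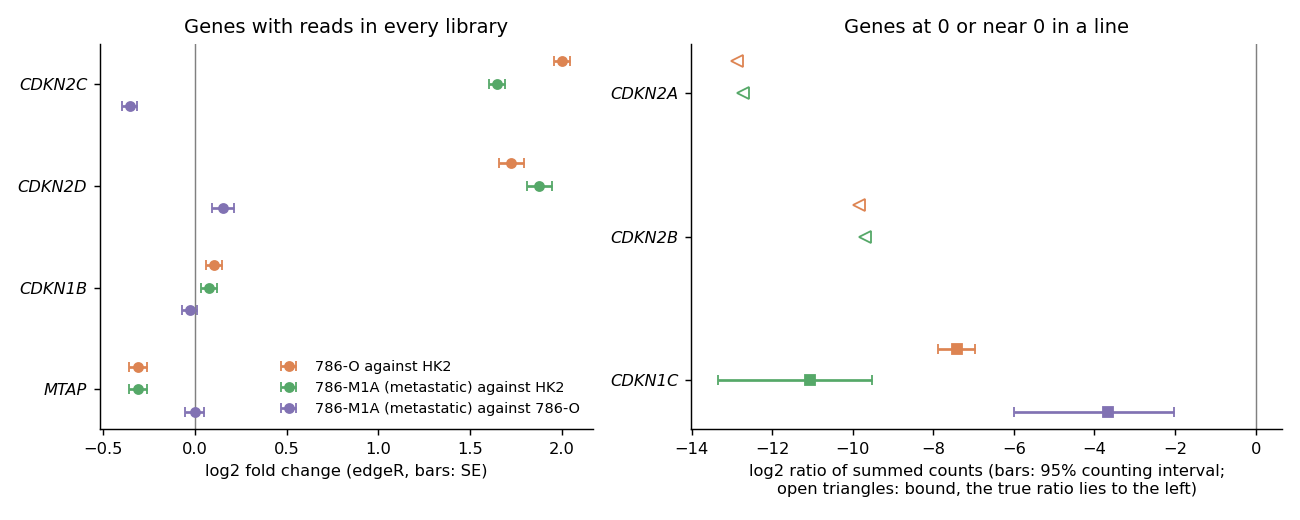
Differences of the 7 genes between lines. The left panel gives edgeR log2 fold changes with bars of 1 standard error for the 4 genes with reads in every library, from 2.00 for *CDKN2C* in 786-O against HK2 to -0.36 for the same gene in the metastatic line against 786-O, and the right panel gives log2 ratios of summed counts with 95% counting intervals for *CDKN1C*, and bounds as open triangles for *CDKN2A* and *CDKN2B*, whose true ratios lie to the left.

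The genes that work with these inhibitors were examined as 9 lists with 80 tested genes. Of the 80, 68 were called in 786-O and 70 in the metastatic line against HK2 and 45 between the cancer lines. This is close to the 84.2%, 84.9% and 56% of all genes tested, and the counts of each list below stand beside these shares. The lists were described by their counts and medians and were not tested as sets.

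The kinases and cyclins of G1, the targets of the inhibitors, were mostly lower in the cancer lines, but not *CCND1* and *CDK6*. Of 8 genes, 8 were called in 786-O (2 higher and 6 lower) and 7 in the metastatic line (1 higher and 6 lower), and the median log2 fold change was -0.58 and -0.67. *CDK4* fell from 244 ± 9.67 CPM in HK2 to 166 ± 3.41 in 786-O and 161 ± 4.12 in the metastatic line (log2 fold change -0.56 and -0.60, edgeR adjusted p = 8.18e-12 and 2.41e-12). *CDK6*, the other kinase that INK4 proteins bind, had 590 ± 38.1 CPM in HK2 against 736 ± 48.2 in 786-O and 641 ± 44.5 in the metastatic line, and was called higher in 786-O (log2 fold change 0.32, edgeR adjusted p = 0.000353) but not in the metastatic line (0.12, edgeR adjusted p = 0.0941). *CCND1*, the cyclin that activates *CDK4* and *CDK6*, had 99.0 ± 4.68 CPM in HK2 against 389 ± 13.7 in 786-O and 490 ± 32.2 in the metastatic line. Its log2 fold change was 1.97 and 2.30 against HK2 (edgeR adjusted p = 1.43e-18 and 1.11e-19) and 0.33 between the metastatic line and 786-O (edgeR adjusted p = 3.65e-06). *CCND2*, its paralog, had 506, 672 and 835 counts in HK2 and 0 in all 6 cancer libraries, at least 709-fold lower in 786-O and at least 640-fold lower in the metastatic line. *CCNE1*, the partner of CDK2, had a log2 fold change of -0.75 and -1.04 (edgeR adjusted p = 8.66e-10 and 5.76e-12).

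Of the 10 pocket proteins and E2F factors downstream, 8 were called in each comparison with HK2, 4 higher and 4 lower in 786-O and 5 higher and 3 lower in the metastatic line. *RB1*, the retinoblastoma gene, had 125 ± 4.55 CPM in HK2 against 204 ± 6.55 in 786-O and 213 ± 6.77 in the metastatic line (log2 fold change 0.70 and 0.76, edgeR adjusted p = 3.31e-13 and 6.89e-14). *E2F2* was higher, by 1.44 and 1.19 on the log2 scale (edgeR adjusted p = 1.60e-14 and 6.41e-13). *E2F3* was lower, by -0.79 and -0.95 (edgeR adjusted p = 1.66e-13 and 7.34e-15). *E2F1*, the founding member of the family, was at 66.8 ± 2.63, 67.6 ± 1.62 and 77.9 ± 1.36 CPM, and was called in the metastatic line only (log2 fold change 0.22, edgeR adjusted p = 4.78e-05).

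Of the 5 genes of the ARF pathway, 4 were called in 786-O (1 higher and 3 lower) and 5 in the metastatic line (1 higher and 4 lower), with a median log2 fold change of -0.48 and -0.92. *CDKN2AIP*, which encodes a protein that binds ARF, had 64.3 ± 2.94 CPM in HK2 against 12.7 ± 0.793 in 786-O and 6.26 ± 0.162 in the metastatic line. It was lower by -2.34 and -3.36 against HK2 (edgeR adjusted p = 5.44e-20 and 6.61e-22) and by -1.02 between the metastatic line and 786-O (edgeR adjusted p = 9.39e-11).

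The genes that degrade p27 were mostly higher in the cancer lines and the FOXO factors that transcribe it were mixed, while *CDKN1B* itself was almost level. Of 10 genes, 9 were called in 786-O (7 higher and 2 lower) and 10 in the metastatic line (8 higher and 2 lower), and 7 between the cancer lines (6 higher and 1 lower in the metastatic line). *SKP2*, the ubiquitin ligase subunit that recognises p27, had a log2 fold change of 0.84 and 0.74 against HK2 (edgeR adjusted p = 1.47e-14 and 1.39e-13). *FOXO1*, a factor that activates *CDKN1B*, had 0.585 ± 0.194 CPM in HK2 against 3.70 ± 0.517 in 786-O and 5.68 ± 0.315 in the metastatic line (log2 fold change 2.70 and 3.33, edgeR adjusted p = 5.97e-12 and 3.74e-14). *FOXO4*, of the same family, was lower, by -1.61 and -1.78 (edgeR adjusted p = 4.51e-13 and 1.45e-13). *FOXO3*, the most abundant of the listed FOXO genes, was lower as well. It had 89.8 ± 3.41 CPM in HK2 against 78.8 ± 2.04 in 786-O and 82.3 ± 3.13 in the metastatic line.

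Of the 12 listed regulators of the INK4 locus, 8 were called in 786-O and 9 in the metastatic line against HK2, with 4 higher and 4 lower in 786-O and 4 higher and 5 lower in the metastatic line. *BMI1*, a Polycomb protein known to repress *CDKN2A*, had 0.787 ± 0.0873 CPM in HK2 against 2.39 ± 0.578 in 786-O and 1.70 ± 0.161 in the metastatic line (log2 fold change 1.62 and 1.12, edgeR adjusted p = 8.05e-08 and 4.52e-05). *EZH2*, the Polycomb methyltransferase, was higher by 0.25 and 0.71 (edgeR adjusted p = 6.56e-06 and 1.92e-13). *RING1*, another Polycomb gene, was lower, by -0.68 and -0.61 on the log2 scale (edgeR adjusted p = 1.25e-10 and 6.68e-10), and *RNF2*, its paralog, had a log2 fold change of -0.49 and -0.42 (edgeR adjusted p = 1.03e-09 and 1.20e-08). *SUZ12* was lower in the metastatic line (-0.58, edgeR adjusted p = 1.08e-11) and was not called in 786-O (-0.04, edgeR adjusted p = 0.315). *ETS2*, an activator of the p16 promoter, was higher by 1.37 and 1.34 (edgeR adjusted p = 6.05e-17 and 8.98e-17), whereas *ETS1*, of the same family, was lower in 786-O (-0.49, edgeR adjusted p = 3.62e-10) and was not called in the metastatic line (-0.07, edgeR adjusted p = 0.144).

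For *MTAP*, the genes of methionine salvage and of the PRMT5 complex, which methylthioadenosine is known to inhibit, were listed. Of 9 salvage genes, 8 were called in each comparison with HK2, 3 higher and 5 lower, none by 2-fold. *SRM*, the spermidine synthase that releases methylthioadenosine, differed most of them in the metastatic line, higher by 0.71 on the log2 scale (edgeR adjusted p = 1.28e-11), after 0.52 in 786-O (edgeR adjusted p = 2.26e-09). Of 5 genes of the PRMT5 complex, 5 were called in 786-O (1 higher and 4 lower) and 4 in the metastatic line (1 higher and 3 lower). *PRMT5* itself had 133 ± 1.11 CPM in HK2 against 69.0 ± 2.14 in 786-O and 70.6 ± 1.78 in the metastatic line (log2 fold change -0.94 and -0.91, edgeR adjusted p = 1.26e-15 and 2.22e-15).

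**Figure D5:**
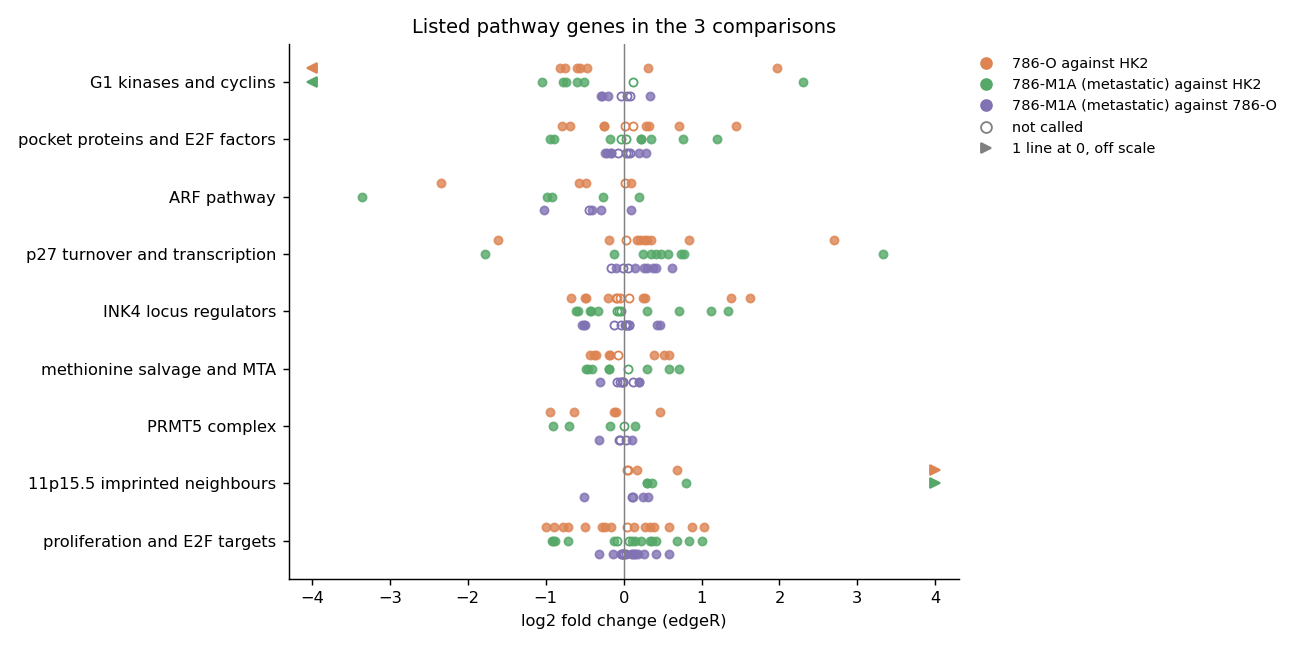
edgeR log2 fold changes of the tested genes of the 9 lists, with 1 point per gene and 1 colour per comparison, where open points were not called and triangles at the edge mark genes with a line at 0 (*CCND2* and *KCNQ1OT1*). Most points lie between -1 and 1, and *CCND1*, *CDKN2AIP* and *FOXO1* lie farthest out among the genes with reads in every line.

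Markers of proliferation stood beside these changes in inhibitors. Of 16 listed genes, 15 were called in 786-O (7 higher and 8 lower) and 14 in the metastatic line (9 higher and 5 lower) against HK2, and the median log2 fold change was -0.06 and 0.12. *MKI67*, which marks cycling cells, had 218 ± 24.2 CPM in HK2 against 447 ± 45.4 in 786-O and 440 ± 32.6 in the metastatic line (log2 fold change 1.03 and 1.01, edgeR adjusted p = 3.44e-05 and 3.85e-05). *RRM2* and *BUB1* were higher in both cancer lines as well. In HK2, 786-O and the metastatic line, *RRM2* had 271, 498 and 485 CPM and *BUB1* had 208, 311 and 335 CPM. *PCNA*, the sliding clamp of DNA replication, fell from 307 ± 16.7 CPM in HK2 to 154 ± 4.94 in 786-O and 166 ± 2.45 in the metastatic line (log2 fold change -0.99 and -0.89, edgeR adjusted p = 1.18e-15 and 7.50e-15). The replicative helicase gene *MCM6* fell by 0.89 and 0.90 on the log2 scale (edgeR adjusted p = 1.08e-15 and 8.34e-16), and *MCM2* and *MCM3* were called lower in both lines as well, whereas *MCM4* and *MCM7* were called lower in 786-O and higher in the metastatic line. The state of the cultures in the cell cycle was not measured, and its part in the differences of the inhibitors was not tested.

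The genes whose pattern over the 9 libraries was most like that of each member were ranked by the Euclidean distance of centred log2 CPM. For *CDKN2A* they were *DKK1* (distance 0.668), *GLUL* (0.689) and *GDF6* (1.01), which had 164, 154 and 125 CPM in HK2 and 0 or almost 0 in the cancer lines. For *CDKN2B* they were *MYO3A* (0.0531), *FAM83B* (0.255) and *ZYG11A* (0.323), all at 0 in both cancer lines. *CDKN1C* was nearest to *FGB* (0.823), *FRAS1* (1.14) and *PRXL2A* (1.58). *CDKN2C* was nearest to *IQCE* (0.116), *CD24* (0.197) and *CD99* (0.245), and *CDKN2D* was nearest to *BST2* (0.144), *BACE2* (0.178) and *MRAS* (0.182). The patterns of *MTAP* were closest to *EVI5* (0.132), *GTF2H3* (0.132) and *NAPB* (0.138), and those of *CDKN1B* to *MMS19* (0.0668), *HNRNPL* (0.0691) and *POLDIP3* (0.0759). All of them lie on another chromosome than the gene that they resembled, except *BST2*, which is on chromosome 19 with *CDKN2D*. A distance near 0 between genes that are at 0 in 6 libraries rests mostly on their level in HK2.

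The libraries held between 30212291 and 45362428 counts, and the TMM factors lay between 0.967 and 1.03. Among the kidney markers *PAX8* was at 167, 165 and 182 CPM in HK2, 786-O and the metastatic line, whereas *LRP2* (megalin), which defines the proximal tubule, was at 0 in all 9 libraries and *SLC34A1*, the tubular phosphate transporter, had at most 14 counts. *CA9*, a marker of ccRCC, had at most 3 counts in any library. The 10 kidney and ccRCC markers analysed summed to 1136 to 1207 CPM in HK2, 789 to 799 in 786-O and 563 to 576 in the metastatic line. This fall was mostly that of *CDH6*, with 884, 409 and 266 CPM in the 3 lines. In contrast, *ANPEP* (1.74, 112 and 19.8 CPM) and *PAX2* (3.48, 24.9 and 10.6 CPM) were higher in both cancer lines. The 9 markers of blood, endothelial and stromal cells, of which 2 to 5 were at 0 in a library and *PTPRC* and *CD3E* in all, summed to 104 to 117, 294 to 361 and 338 to 339 CPM, mostly through *COL1A1* in 786-O and *PDGFRB* in the metastatic line. The 7 epithelial and mesenchymal markers summed to 2828 to 2945, 5567 to 5719 and 7574 to 7784 CPM, mostly through *VIM*. These sums moved with the lines and so with the inhibitors, and their part in the results was not tested.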

How the data were processed

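The authors prepared TruSeq Stranded mRNA libraries, 3 for each of HK2, 786-O and the metastatic line, and deposited raw counts per NCBI gene identifier, made with featureCounts of the Rsubread package on hg38 (GRCh38). The deposited counts are whole numbers that were neither normalized nor filtered. The annotation version and the strand setting are not given in the sources used here. Symbols and positions came from RefSeq (GRCh38.p14), and symbols matched 27745 of 28395 identifiers. Overlaps were computed from these positions. Strands, transcript lengths and transcript sequences came from GENCODE release 44 on GRCh38.

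Counts were normalized with TMM in edgeR 4.0.16 (R 4.3.3), and genes averaging 50 or more counts, the filter of the study, were tested with a robust quasi-likelihood fit of all 9 libraries with a coefficient per line. This count model took the place of the log2, VSN and limma steps of the study. Benjamini-Hochberg adjustment covered 12695 genes, and calls were made at 0.05. The common biological coefficient of variation came to 3.93%. The log2 fold change and the F statistic gave the standard errors (SE). Permutation tests used log2 CPM with a prior count of 2. Folds against a line at 0 were set against 3 counts over its 3 libraries, and ratios of summed counts have exact conditional 95% intervals, both for counting error only. The main edgeR fit and the DESeq2 and limma-voom fits were tested on simulated counts, for 786-O against HK2. The other settings were not tested in this way.

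The alternatives were RLE and upper-quartile normalization, DESeq2 1.42.0, limma-voom (limma 3.58.1), no filter, at least 10 counts in every library, a fit restricted to the 2 lines in question, a block for the replicate number, and the omission of each library. The remaining steps ran in Python 3.11.15 (scipy 1.17.1, pandas 2.3.3, numpy 2.4.6, matplotlib 3.10.9).

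The 7 genes and the gene lists were chosen with earlier results of these data known. Beside the 7 genes, those named were the genes within 1 Mb of *CDKN2A*, the genes within 3 Mb and the listed genes that were called with at least a 2-fold difference (up to 4 per list and comparison), and the 3 genes most like each member. The genes *CDK4*, *CDK6*, *RB1*, *E2F1*, *E2F3*, *SKP2*, *FOXO3*, *EZH2*, *RING1*, *RNF2*, *SUZ12*, *ETS1*, *PCNA*, *MCM2*, *MCM3*, *MCM4*, *MCM6*, *MCM7*, *RRM2*, *BUB1*, *PRMT5*, *SRM*, *KCNQ1*, *H19* and *IGF2* were named from the lists after their values were seen. *PHLDA2*, *NAP1L4*, *CD81* and *TSSC4* were also named from the lists after their values were seen. *SLC22A18* and *NDUFA4L2* of the lists were not analysed here.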

Additional observations from a re-analysis of the deposited data

How the results depend on the processing

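Of the 7 genes, *CDKN2A*, *CDKN2B*, *CDKN2C*, *CDKN2D*, *CDKN1C* and *MTAP* kept their direction and their call against HK2 in both cancer lines under all alternatives that tested them. The log2 fold change of *CDKN2C* ran from 1.96 to 2.05 in 786-O and from 1.60 to 1.69 in the metastatic line, and that of *MTAP* from -0.37 to -0.26 and from -0.36 to -0.28. With at least 10 counts in every library, *CDKN2A*, *CDKN2B* and *CDKN1C* were no longer tested, and 3 of the 4 remaining genes were called in each comparison with HK2. The small differences depended on the setting. *CDKN1B* in 786-O against HK2 was called under 12 of 17 alternatives, and not with upper-quartile normalization (edgeR adjusted p = 0.183) or with at least 10 counts in every library (0.0535). In the metastatic line it was called under 1 of 17, without a filter on low counts (edgeR adjusted p = 0.0447). *CDKN2D* between the metastatic line and 786-O was called under 12 of 17, and not by DESeq2 (adjusted p = 0.0517). *MTAP* between these lines, not called, had a log2 fold change of 0.0057 with RLE normalization, 0.0054 by DESeq2, 0.0023 by limma-voom and 0.0050 without a filter, and of -0.040 to 0.058 with a library left out. *CDKN1C* between these lines rests on 42 and 3 counts, and its log2 fold change was -4.36 without replicate 3 of the metastatic line and -2.96 without replicate 2 of the metastatic line. The other 151 counts of calls and 299 values of single genes stayed on their side.

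With the replicate block, 7, 6 and 3 of the 7 genes were called in 786-O against HK2, the metastatic line against HK2 and the metastatic line against 786-O, as without it, and no call of these 7 changed. Of the 80 listed pathway genes, 67, 71 and 45 were called with the block against 68, 70 and 45 without it. The deviations of same-numbered libraries had correlations across genes of -0.057 to -0.029, -0.17 to 0.038 and 0.074 to 0.21 in these comparisons. Between the metastatic line and 786-O, libraries with different numbers had correlations of -0.15 to 0.048, so the same-numbered ones were slightly more alike there. What the replicate number stands for is not given. Depth limits the noncoding RNAs near *CDKN2A* and the CDKN1C level of the metastatic line, which had 3 counts.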
